A study of Mus musculus with 35 samples.

Results

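The Spata and Tex genes of mouse male germ cells were followed through deletion of the endonuclease Smg6. Gene rows whose symbol starts with Spata or Tex and goes on with a digit were taken, if they had 10 or more counts in at least 3 libraries of a table. The 56 genes found, 28 Spata and 28 Tex, came from 24411 gene rows and were chosen by name and count. All 56 passed the count filter in pachytene spermatocytes (Spc) and in round spermatids (RS), and 54 passed in chromatoid bodies (CB). Tex28 and Spata5l1, a row that GENCODE annotates as a processed transcript, did not pass in CB.

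RNA was sequenced from Spc and RS fractions, enriched by sedimentation, and from isolated CBs of adult mice. The Smg6 conditional knockout (cKO) carried 2 floxed alleles of exon 9 and an Ngn3Cre transgene, Smg6(fx/fx);Ngn3Cre+, so that the Ngn3 promoter drove recombination in early postnatal spermatogonia. Controls (CTRL) were littermates without Cre, Smg6(fx/fx);Ngn3Cre- or Smg6(fx/wt);Ngn3Cre-, and therefore also carried floxed alleles. All mice had a mixed C57Bl/6J and SV129 background. There were 3 libraries per genotype for Spc and for RS, and 4 CTRL and 3 cKO libraries for CB. The CB samples were pooled from several mice. The sources describe the cell samples both as the testes of single mice and as several testes, so p-values measure the spread between these samples.

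The names Spata (spermatogenesis associated) and Tex (testis expressed) record where a transcript was found, and the genes that carry them belong to many unrelated families. Meiotic genes among them act in spermatocytes on chromosome pairing, recombination and the bridges that join germ cells. Round spermatids switch on the genes of the acrosome, flagellum and sperm mitochondria, and keep many of these mRNAs in store until the sperm is built. The CB is a perinuclear granule of round spermatids that gathers RNA and RNA-binding proteins, and SMG6 is the endonuclease of nonsense-mediated decay.

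The libraries held 38129415 to 49940226 counts on genes and transposable elements in Spc and RS, and 3965541 to 16699210 in CB, where low genes are therefore less precise. The Smg6 row cannot check the labels, because it covers the whole gene and only exon 9 was deleted; its normalized count was 4702 to 7386 in CTRL Spc, 7841 to 8148 in cKO Spc, 6168 to 10115 in CTRL RS and 8161 to 8746 in cKO RS. Spermatocyte markers took 0.412 to 0.457% of gene counts in Spc and 0.249 to 0.278% in RS. Late spermatid markers (9 genes, among them Prm1, Prm2, Tnp1 and Akap4) took 2.28 to 2.82% in CTRL RS and 0.221 to 0.238% in cKO RS. They took 0.413 to 0.808% in CTRL Spc, 0.0472 to 0.151% in cKO Spc, 0.267 to 0.574% in CTRL CB and 0.04 to 0.0635% in cKO CB. The spermatid list (8 genes, among them Acr, Acrv1 and Izumo1) was at 0.296 to 0.312% in CTRL RS and 0.141 to 0.157% in cKO RS, and no gene of either list was at 0 in any group. CTRL Spc library 1 stood apart with 0.808% late spermatid RNA against 0.413 and 0.416% in the others. Among the cKO Spc libraries, library 3 had the lowest share. Non-germ cell markers also moved with the groups: macrophage genes (9) took 0.00253 to 0.0036% in CTRL RS and 0.0249 to 0.0406% in cKO RS, Leydig cell genes (6) 0.0119 to 0.0402% in CTRL Spc and 0.0572 to 0.122% in cKO Spc, and Sertoli cell genes (7) 0.0266 to 0.0756% in CTRL Spc and 0.0154 to 0.0242% in cKO Spc. Leydig genes took 0.000585 to 0.000643% in CTRL RS and 0.0033 to 0.0346% in cKO RS, and Sertoli genes 0.0031 to 0.00415% and 0.00691 to 0.0212%. Of the other lists, spermatogonia genes rose in 5 of 6 cases and erythroid genes in 2 of 3 in cKO RS, where 1 of 3 peritubular myoid genes fell and 0 of 3 endothelial genes passed. In such bulk fractions, fewer cells of a kind and less RNA per cell cannot be told apart.

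Summed, the 56 genes held 1.59 ± 0.0536% (SD, n = 3) of gene counts in CTRL RS and 0.81 ± 0.0379% (n = 3) in cKO RS. In Spc the shares were 0.859 ± 0.13% in CTRL and 0.661 ± 0.044% in cKO (n = 3 each). In CB they were 0.453 ± 0.097% in CTRL (n = 4) and 0.224 ± 0.0431% in cKO (n = 3). The lowest CTRL library lay above the highest cKO library in Spc, in RS and in CB. With so few libraries this is a description only, and such a sum is weighted towards the most abundant of the genes. CTRL Spc library 1, at 1.01%, was well above the other CTRL Spc libraries, at 0.761 and 0.811%.

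**Figure D1:**
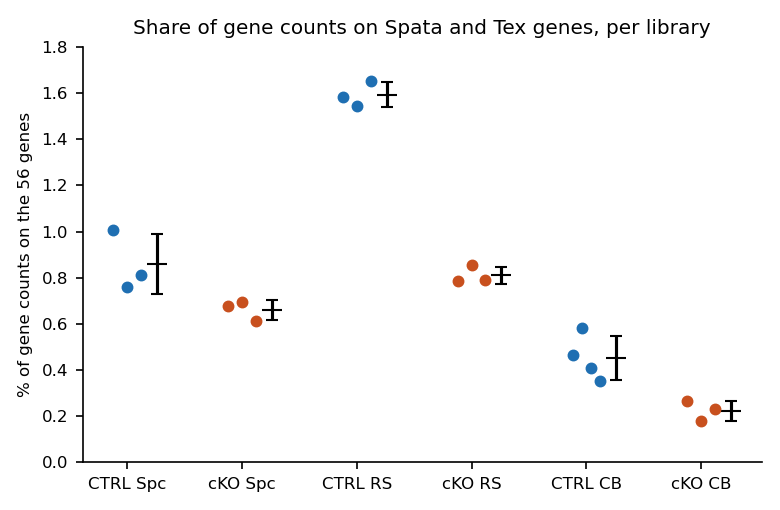
Percent of all gene counts that fell on the 56 Spata and Tex genes (y axis) in each library (points; blue CTRL, orange cKO), with the mean and SD of each group at its right. CTRL RS sits near 1.6%, and the cKO RS libraries sit between 0.787 and 0.854%.

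In control germ cells, most of these genes were higher in round spermatids than in spermatocytes. RS against Spc in CTRL, 41 of 56 genes rose, 9 fell and 6 did not pass (adjusted p of at most 0.05), where 36.2% of the 17046 genes tested rose and 39.7% fell. When a log2 fold change beyond 1.5 either way was also required, 30 were higher (17% of all genes) and 6 were lower (17%). The median log2 fold change was 1.68 over the 56 genes and -0.08 over all genes tested. With scaling by library size only, 35 rose and 14 fell, and 12 were higher and 6 lower at the threshold; the median of all genes was then -0.54 and that of the 56 genes 1.23. Late spermatid markers, 9 of 9 (median 2.67), and spermatid markers, 8 of 8 (1.83), rose with this difference. Spermatocyte markers fell in 5 of 8 cases (-1.30) and rose in 1, and Leydig markers, 6 of 6 (-4.90), and Sertoli markers, 7 of 7 (-3.24), fell; the part of these lists was not tested.

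The genes with the steepest rise were Spata32, Spata3, Spata18, Tex37 and Tex13a. Spata18, which takes part in the quality control of mitochondria, had normalized counts of 11913, 5538 and 6248 in CTRL Spc and of 54711, 47586 and 61210 in CTRL RS. The RS libraries did not overlap with the Spc libraries, and the log2 difference was 2.65 ± 0.31 (SE; adjusted p = 0.00027). Spata32 went from 1525, 720 and 625 to 6992, 5620 and 7739, a log2 fold change of 2.69 ± 0.35 (adjusted p = 0.00042). Tex13a, on chromosome X, rose from 1233, 655 and 675 to 5841, 4194 and 5441, by 2.46 ± 0.28 (adjusted p = 0.00025). None of these RS libraries overlapped with a Spc library, where 42% of all 17046 genes were higher in RS without overlap and 38% lower. In these 3 genes CTRL Spc library 1 was the highest of its group, as it was for 39 of the 41 genes that rose.

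Genes of the sperm tail and mitochondria all rose in CTRL, 9 of 9, with a median log2 fold change of 1.87. Of all genes 36.2% rose, and their median was -0.08. Spata19, a mitochondrial protein of the sperm midpiece, was at 7788, 3636 and 4214 in CTRL Spc and at 26849, 22093 and 28836 in CTRL RS, a rise of 2.18 ± 0.30 (adjusted p = 0.00048). Spata6, needed to build the connecting piece between head and tail, rose by 1.69 ± 0.19 (adjusted p = 0.00025). Tex43 (1.98) and Tex33 (1.87) rose to a like extent, Spata33, which places calcineurin in the midpiece, by 0.81 ± 0.11 (adjusted p = 0.00049) and Spata17 by 0.77 ± 0.10 (adjusted p = 0.00040). Tex40 rose least, by 0.20 ± 0.07 (adjusted p = 0.027), and its difference turned to -0.25 when libraries were scaled by their size only. The Spata31 paralogs, Spata31 and Spata31d1a to Spata31d1d, all rose by 1.71 to 1.92. These 5 genes lie on chromosome 13 and are near-identical in part, so how reads were shared among them is uncertain.

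Meiotic genes went both ways in CTRL. Spata22, the partner of MEIOB in meiotic recombination, was at 753, 821 and 903 in CTRL Spc and at 129, 140 and 122 in CTRL RS. It fell by 2.79 on the log2 scale (SE 0.14, adjusted p = 3.0e-05), the lowest value of the 56. Tex19.2 went from 1298, 1823 and 1743 to 235, 264 and 271, and fell by 2.79 (SE 0.16, adjusted p = 3.4e-05). Its neighbour Tex19.1, a germ cell protein of transposon control that binds UBR2, fell by 1.62 (SE 0.18, adjusted p = 0.00024); the pair are close paralogs on chromosome 11 and their counts are uncertain for the same reason. Tex14, which keeps intercellular bridges open, did not pass, with 4674, 4333 and 4575 in Spc and 4353, 4611 and 4805 in RS. Tex15, a protein of meiotic DNA repair and of transposon silencing, rose by 1.56 ± 0.19 (adjusted p = 0.00031), and Tex11, an X-linked gene of chromosome synapsis, by 0.66 ± 0.19 (adjusted p = 0.016). The call of Tex11 was lost with library size only, without CTRL RS library 1 and without CTRL Spc library 2.

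Among genes outside meiosis, 4 of the 10 broadly expressed genes fell and 4 rose. These shares lay near the background, as 39.7% of all genes fell and 36.2% rose. Spata13 was at 162, 391 and 289 in CTRL Spc and at 45.0, 43.0 and 46.8 in CTRL RS, and fell by 2.77 (SE 0.34, adjusted p = 0.00032). Spata2, the adaptor between CYLD and the linear ubiquitin ligase, also fell, from 724, 1015 and 894 to 496, 519 and 428 (adjusted p = 0.00089). So did Spata5 (-0.24), an AAA ATPase of ribosome assembly, and Spata5l1 (-1.96). Spata5l1 was at 20.1, 65.1 and 44.1 in CTRL Spc and at 20.6, 11.1 and 4.25 in CTRL RS, so the libraries overlapped, and its call was lost without CTRL RS library 2 or 3, without CTRL Spc library 2 and with a replicate block. Spata7 (2.10), known from the photoreceptor cilium, Spata2l (1.74), Tex2 (0.90) and Tex10 (0.39), a partner of the PELP1 and SENP3 complex, rose, though Tex10 was at -0.06 with scaling by library size. Tex101, a surface protein of germ cells required for mature ADAM3, fell by 2.05 (SE 0.29, adjusted p = 0.00057), and Spata16, an acrosome protein, was at 0.16 ± 0.08 (adjusted p = 0.11). Of the 24 genes with no assigned role, 21 rose, and 1, Tex30, fell (-0.27). The libraries of Tex30 overlapped, and its call was lost with DESeq2, without CTRL RS library 1 or 2 and without CTRL Spc library 3. Over all 56 genes, 35 of the 41 rises and 7 of the 9 falls were kept in every alternative run.

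**Figure D2:**
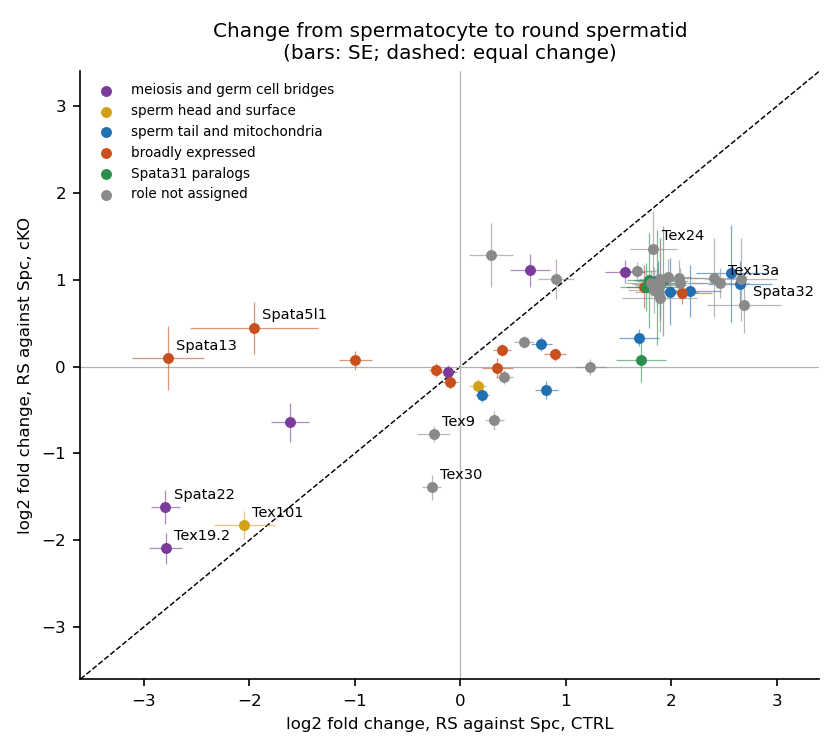
Log2 fold change of RS against Spc for each gene in CTRL (x axis) and in cKO (y axis), coloured by role group, with SE bars and a dashed line where both are equal. Many genes near 1.7 to 2.7 on the x axis sit near 1 on the y axis, and Spata13 is at -2.77 in CTRL and 0.10 in cKO.

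In cKO fewer of these genes rose from Spc to RS. RS against Spc in cKO, 24 genes rose, 7 fell and 25 did not pass, where 18.9% of 17709 genes rose and 26.4% fell. The call was kept in every alternative run for 14 of the 24 and 6 of the 7. At the threshold of 1.5, 0 of the 56 were higher (3.27% of all genes were), also by unadjusted p and by DESeq2, and 3 were lower (3.79%). Those 3 were Tex19.2 (-2.10 ± 0.18, adjusted p = 0.00022), Tex101 (-1.83 ± 0.16, adjusted p = 0.00026) and Spata22 (-1.62 ± 0.20, adjusted p = 0.00077). The highest value was that of Tex24, 1.36 ± 0.43 (adjusted p = 0.035), followed by Tex13 (1.29), Tex11 (1.11), Tex21 (1.10) and Tex15 (1.09). The calls of Tex24 and Tex13 were lost in 4 and 3 alternatives. The median was 0.85 over the 56 genes and 0.01 over all genes. Of the 41 genes that rose in CTRL, 23 rose in the separate cKO libraries (56.1%, against 39.6% of all 6169 genes that rose in CTRL), 16 did not pass and 2, Spata4 and Tex40, fell. The number that rose was 15 without cKO RS library 2 or without cKO Spc library 1, and 34 without cKO Spc library 2. The number higher at the threshold was 9 without cKO Spc library 2, 2 without cKO RS library 3 and 1 without cKO Spc library 3. In the same step late spermatid markers rose in 5 of 9 cases (median 1.00), spermatid markers in 5 of 8 (0.96), macrophage markers in 9 of 9 (2.13) and erythroid markers in 3 of 3 (6.45). Spermatocyte markers fell in 6 of 8 cases (-0.93) and Leydig markers in 5 of 6 (-2.67), and the part of these lists was not tested.

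The difference between those steps, equal to the difference between the cKO effect in RS and in Spc, was tested as an interaction. It was more negative in RS for 31 of 56 genes and more positive for 5, with 24.1% and 19% of 18171 genes, and 9 of the 31 and 3 of the 5 kept that call in every alternative run. Scaled by library size only, the counts were 9 and 13, since the median over all genes then moved from -0.13 to 0.58, and the median of the 56 genes relative to all genes was -0.83 and -0.84 under these settings. The number more negative was 19 without CTRL Spc library 3 or cKO RS library 1 and 20 without cKO RS library 3, and the number more positive was 3 without CTRL Spc library 2. Spata32 (-2.10 ± 0.50, adjusted p = 0.0074), Spata18 (-1.82 ± 0.43, adjusted p = 0.0070), Spata3 (-1.78), Spata31d1a (-1.75) and Tex13a (-1.61) had the most negative terms of the genes that passed. Spata13 (2.77 ± 0.54, adjusted p = 0.0026), Spata5l1 (2.30), Spata22 (1.07), Spata2 (0.97) and Tex19.1 (0.87) had the positive ones. The calls of Spata5l1, Tex19.1 and Spata3 were lost in 2, 8 and 13 alternatives. Between Spc and RS of cKO, Spata13 stayed at 138 to 182 and 84.0 to 231 normalized counts, with a log2 difference of 0.10 ± 0.36 (adjusted p = 0.84). No gene passed the test in opposite directions in Spc and in RS.

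In round spermatids most of these genes were lower in cKO than in CTRL. Of the 56, 38 fell (34.3% of 17492 genes), 12 rose (38.4%) and 6 did not pass. The call was kept in every alternative run for 34 of the 38 and 9 of the 12. With the threshold of 1.5, 27 were lower (11.6%) and 2, Spata13 and Spata5l1, were higher (14.8%; 4 without cKO RS library 3). The median was -1.22 over the 56 and 0.11 over all genes tested. With library size only, the median of all genes was 0.73, 34 genes fell and 18 rose, and 15 were lower and 7 higher at the threshold; relative to all genes the median of the 56 was -1.33 with TMM and -1.32 with library size only. Controls of this comparison are also the RS samples of the step in CTRL above, so the comparisons are not independent, and in the same way the cKO Spc libraries serve both the Spc comparison and the step in cKO.

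The lowest values were those of Spata32, Spata3, Tex37, Spata18 and Tex35. Spata18 was at 54711, 47586 and 61210 in CTRL RS and at 3231, 3579 and 3415 in cKO RS, a log2 fold change of -3.99 ± 0.11 (adjusted p = 1.5e-07). Spata32 went from 6992, 5620 and 7739 to 332, 364 and 302 (-4.34 ± 0.14, adjusted p = 2.6e-07), and was 20.2-fold lower. Spata3 was at 29351, 26473 and 34526 in CTRL and at 1732, 2008 and 1582 in cKO (-4.07 ± 0.13, adjusted p = 2.3e-07). Tex37 (-4.01 ± 0.16) and Tex35 (-3.51 ± 0.14) followed. CTRL and cKO libraries did not overlap in any of these 5 genes, and the cKO libraries lay within a narrow range. Of all 17492 genes, 36.9% were lower in cKO without overlap and 40% were higher. Late spermatid markers, 9 of 9, and spermatid markers, 8 of 8, fell in the same libraries, with medians of -3.94 and -1.59, while macrophage markers, 9 of 9, Leydig markers, 5 of 5 tested (median 4.16), and Sertoli markers, 6 of 6 tested (median 1.46), rose; their part in the values above was not tested.

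Of the 9 sperm tail and mitochondria genes 8 fell, with a median of -2.01, and 7 were past the threshold. Of all genes, 34.3% fell and 11.6% were lower at the threshold. Spata19 went from 26849, 22093 and 28836 to 3664, 3961 and 3241 (-2.83 ± 0.12, adjusted p = 5.8e-07). Tex43 fell by 2.72, Spata6 by 2.01, Tex33 by 1.81 and Spata33 by 1.52 on the log2 scale. Tex40, at -0.75, also fell, and Spata17, at -0.13 ± 0.08 (adjusted p = 0.155), did not pass. All 5 Spata31 paralogs fell, with values from -2.60 (Spata31d1b) to -1.98 (Spata31). Genes without an assigned role fell in 19 of 24 cases, among them Spata20 (-2.27) and Spata21 (-2.26), which are among the most abundant of the set, and rose in 2, Tex13 (1.39 ± 0.29, adjusted p = 0.0030) and Tex16 (0.67).

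Meiotic genes had the highest median of the role groups, 0.74 (0.11 over all genes), and 4 of 6 rose, where 38.4% of all genes did. The paralogs Tex19.1 and Tex19.2, whose counts are uncertain, are among the 4. Spata22 went from 129, 140 and 122 in CTRL RS to 315, 267 and 209 in cKO RS (1.03 ± 0.21, adjusted p = 0.0024). Tex19.1 rose by 1.33 ± 0.25 (adjusted p = 0.0018), Tex11 by 0.92 ± 0.19 (adjusted p = 0.0027) and Tex19.2 by 0.56 ± 0.19 (adjusted p = 0.027). The call of Tex19.2 was lost without any 1 of the 3 CTRL RS libraries, without cKO RS library 1 and with a replicate block. Tex15 fell, by 1.01 (SE 0.12, adjusted p = 0.00015), and Tex14 was at 0.14 ± 0.07 (adjusted p = 0.12). Spermatocyte markers, with 5 of 8 genes higher and 2 lower, and spermatogonia markers, with 5 of 6 higher, moved with these genes, and their part was not tested. Tex101 rose (0.76 ± 0.24, adjusted p = 0.021) and Spata16 fell (-0.26 ± 0.09, adjusted p = 0.027), though Spata16 was at 0.36 with library size only and lost its call with summed transcripts, with a replicate block and without CTRL RS library 1 or 3 or cKO RS library 1 or 3.

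Of the 5 genes on chromosome X, Tex11, Tex13 and Tex16 rose in cKO RS and Tex13a fell (-1.66 ± 0.12, adjusted p = 9.6e-06). Tex28 did not pass (-0.31 ± 0.24, adjusted p = 0.27), and of all genes 38.4% rose and 34.3% fell. Of the 10 broadly expressed genes 5 rose and 4 fell, shares near those of all genes. Spata13 was at 45.0, 43.0 and 46.8 in CTRL RS and at 208, 84.0 and 231 in cKO RS (1.97 ± 0.39, adjusted p = 0.0022). Spata2 went from 496, 519 and 428 to 1169, 1009 and 1116, a rise of 1.20 ± 0.12 (adjusted p = 6.0e-05). Spata5l1 (2.15, at 4.25 to 20.6 in CTRL and 39.0 to 65.4 in cKO), Spata5 (0.35) and Tex10 (0.23) also rose, though the call of Tex10 was lost with DESeq2 and without CTRL RS library 1. Spata7 (-2.46 ± 0.10, adjusted p = 5.7e-07), Tex2, a lipid transfer protein (-1.08), Tex264, a receptor of ER-phagy (-0.96), and Spata2l (-0.54) fell, but Spata2l was at 0.07 with library size only.

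**Figure D3:**
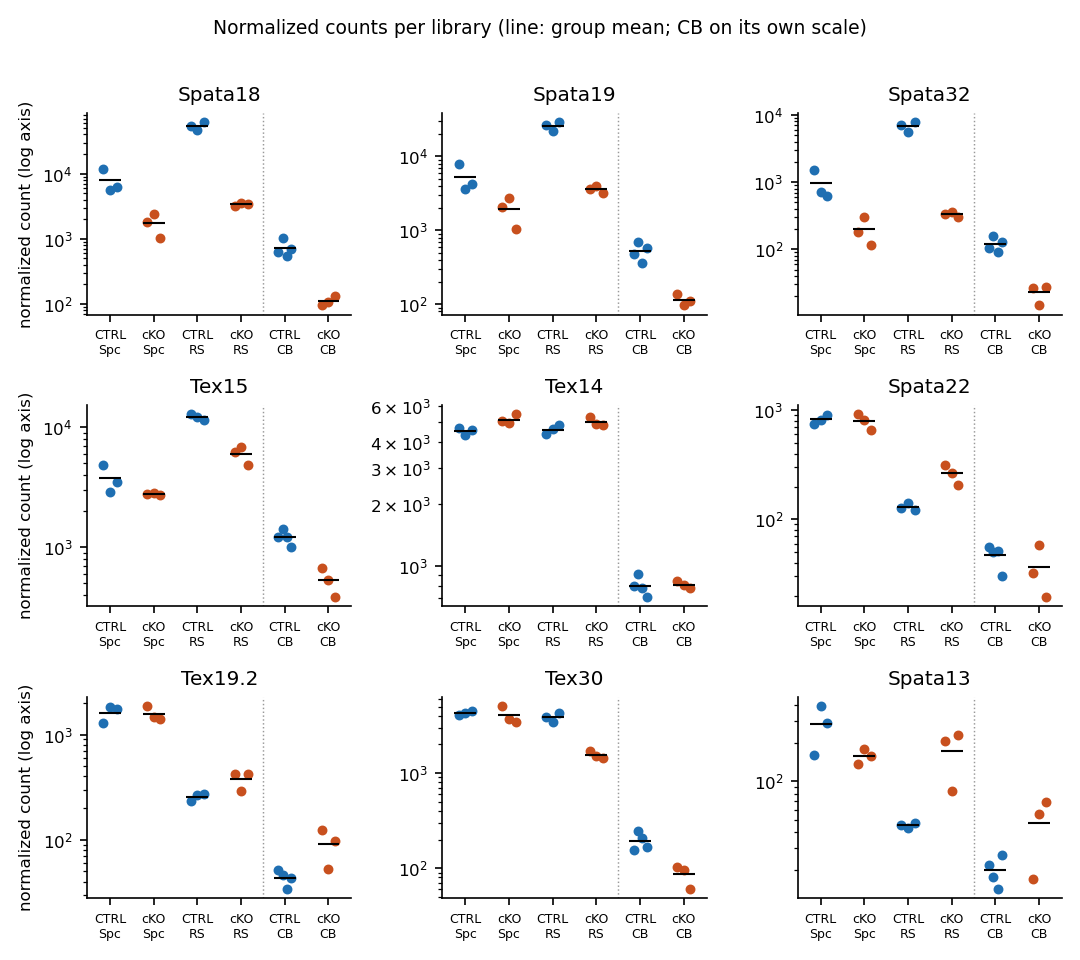
Normalized counts (log y axis) of 9 genes in each library (points; blue CTRL, orange cKO; line, group mean), with CB libraries on a scale of their own right of the dotted line. Spata18, Spata19 and Spata32 peak in CTRL RS, Tex14 is nearly level, and Spata22 and Tex19.2 are highest in Spc.

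In spermatocytes the differences were smaller and less certain. Of the 56 genes, 18 fell (14.1% of 17321 genes), 2 rose (14%) and 36 did not pass. With the threshold, 7 were lower (5.1%) and 0 were higher (3.41%). The 7 were Tex37, Spata3, Spata32, Spata18, Tex35, Tex43 and Spata19. The highest value was 0.78, so that no gene reached the upper threshold by edgeR, by unadjusted p or by DESeq2. Spata18 was at 11913, 5538 and 6248 in CTRL Spc and at 1787, 2400 and 1031 in cKO Spc (-2.30 ± 0.40, adjusted p = 0.0091). Spata3 was at 6837, 3013 and 3142 in CTRL and at 919, 1428 and 284 in cKO (-2.42 ± 0.60, adjusted p = 0.026). CTRL and cKO libraries did not overlap in either gene, but CTRL library 1 stood high and cKO library 3 low in both. Of all 17321 genes, 17.6% were lower in cKO Spc without overlap and 30.7% were higher.

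These calls rested on few libraries. Without cKO Spc library 1, 2 genes fell and 1 was past the threshold, and without cKO Spc library 2 these numbers were 20 and 11. The number that fell was 8 without CTRL Spc library 1, 5 without CTRL Spc library 3 and 6 without cKO Spc library 3, and the number past the threshold was 2 without either of these CTRL libraries. With CTRL library 1 and cKO library 3 both left out, an alternative added after the data were seen, 12 genes fell, 4 rose and 3 were past the threshold, and the median was -0.21 in place of -0.50, with all genes at 0.01. The late spermatid markers all fell in the same comparison, with a median of -2.21, 5 of 7 Sertoli markers fell and 8 of 9 macrophage markers rose; their part was not tested. Of the role groups, 7 of 9 sperm tail and mitochondria genes fell, while 0 of the 6 meiotic genes (2 at an unadjusted p below 0.05), 0 of the 2 head and surface genes (1) and 0 of the 5 Spata31 paralogs (3) passed edgeR's adjusted test. Of all genes 14.1% fell and 14% rose, so that 0 in groups this small is near the background. The genes that rose were Tex10, from 7747, 6740 and 6951 to 10724, 9591 and 10576 (0.42 ± 0.08, adjusted p = 0.014), and Spata17, from 4131, 3391 and 3967 to 5388, 5264 and 5298 (0.36 ± 0.10, adjusted p = 0.031), and the number that rose ranged from 0 to 4 when single libraries were left out. Of the 18 genes that fell in Spc, 2 kept that call in every alternative run, and neither of the 2 that rose did. All 18 also fell in RS, in a separate set of libraries, where 71.6% of the 2448 genes of any name that fell in Spc fell too.

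**Figure D4:**
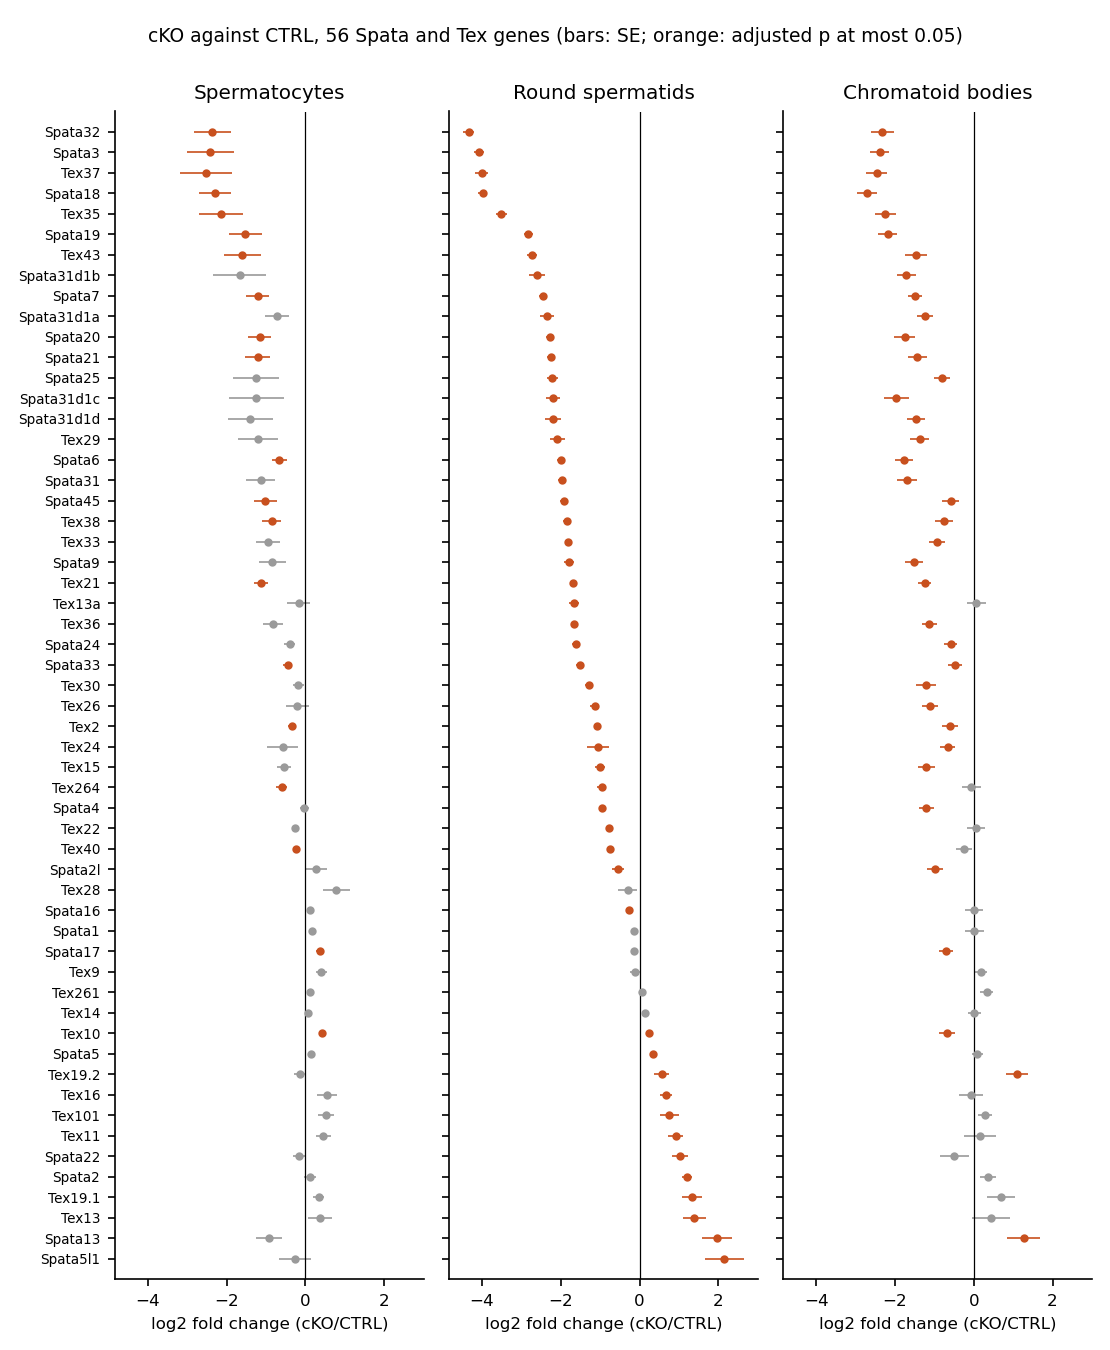
Log2 fold change of cKO against CTRL (x axis) with SE for each gene (rows, ordered by the RS value) in Spc, RS and CB; orange points have an adjusted p of at most 0.05. Spata32 is at -4.34 in RS and Spata5l1 at 2.15, and CB has no value for Spata5l1 and Tex28.

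In chromatoid bodies the 5 lowest genes, Spata18, Tex37, Spata3, Spata32 and Tex35, were also the 5 lowest in RS. Of 54 genes tested, 35 fell (18.4% of 14051 genes), 2 rose (18.1%) and 17 did not pass. With the threshold, 12 were lower (5.64%) and 0 were higher (5.69%), and the highest value, 1.27, kept every gene under the upper threshold by unadjusted p and DESeq2 as well. The median was -0.77 over the 54 and 0.07 over all genes. Spata18 was at 633, 1039, 534 and 697 in CTRL CB and at 94.3, 106 and 132 in cKO CB (-2.70 ± 0.25, adjusted p = 2.8e-05). Next to it, Tex37 (-2.46), Spata3 (-2.39), Spata32 (-2.32), Tex35 (-2.24) and Spata19 (-2.19) were lowest, and no CTRL library overlapped with a cKO library in these genes. Of all 14051 genes, 20.8% were lower in cKO CB without overlap and 19% were higher. Late spermatid markers, 9 of 9 with a median of -2.70, and spermatid markers, 7 of 8 with a median of -1.17, fell in the CB libraries. Leydig markers rose in 5 of 5 tested (median 2.39), macrophage markers in 3 of 5 (2.01), spermatogonia markers in 3 of 5 (1.14) and Sertoli markers in 2 of 5 (0.92), and the part of these lists was not tested.

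In CB 8 of 9 sperm tail and mitochondria genes, all 5 Spata31 paralogs and 17 of 23 genes without an assigned role fell, where 18.4% of all genes did. Spata17 (-0.71 ± 0.18, adjusted p = 0.0085) and Tex10 (-0.68 ± 0.19, adjusted p = 0.014) fell in CB, where Tex10 went from 258, 341, 295 and 237 to 199, 150 and 180. Tex19.2 went from 51.2, 46.1, 33.9 and 43.7 to 125, 52.8 and 96.6 (1.09 ± 0.28, adjusted p = 0.0088), and Spata13 from 22.1, 17.5, 14.1 and 26.2 to 16.8, 55.7 and 69.4 (1.27 ± 0.42, adjusted p = 0.029), with the lowest cKO library inside the CTRL range; 1 of these genes rose without CTRL CB library a, b or c or cKO CB library b or c, and 1 passed the threshold of 1.5 without cKO CB library a. Tex13a, at 66.2, 105, 69.7 and 84.4 in CTRL and 103, 76.2 and 77.3 in cKO, did not pass in CB (0.07 ± 0.24, adjusted p = 0.85) and fell by 1.66 in RS. Of the 35 genes that fell in CB, 33 fell in RS (94.3%, against 91.4% of all 2589 genes that fell in CB), a share near the background. The call was kept in every alternative run for 28 of the 35. It was lost in 8 alternatives for Spata33 and 7 for Spata45, whose CTRL and cKO libraries overlapped.

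**Figure D5:**
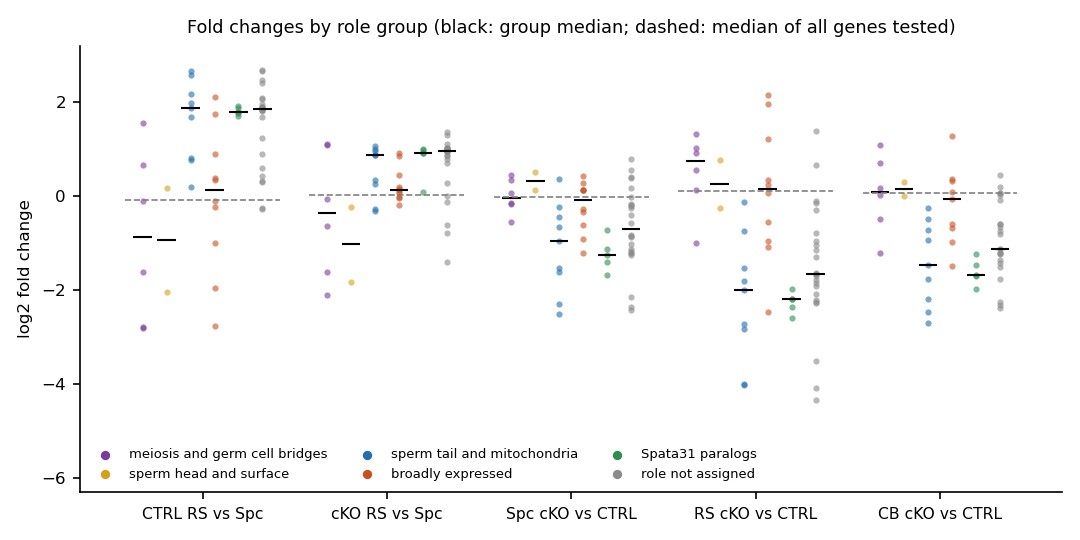
Log2 fold change (y axis) of every gene (points) by role group (colour) in 5 comparisons, with the group median as a black line and the median of all genes tested as a dashed line. In RS the sperm tail and mitochondria group lies at a median of -2.01, and the meiotic group at 0.74.

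Known partners of these genes, a list of 15, moved in both directions. In RS 6 rose and 5 fell in cKO, with a median of 0.23, where 38.4% of all genes rose and 34.3% fell, so that the shares lay near the background. In Spc 4 rose and 1 fell (median 0.11), with 14 and 14.1% of all genes, and in CB 4 rose and 1 fell (median 0.12), with 18.1 and 18.4%. From Spc to RS, 5 rose and 6 fell in CTRL (36.2 and 39.7% of all genes), and 3 rose and 4 fell in cKO (18.9 and 26.4%). Members of the TEX10 complex differed among themselves. Senp3 was at 2170, 1860 and 2037 in CTRL RS and at 5065, 5268 and 4718 in cKO RS (1.32 ± 0.08), and Las1l (1.20 ± 0.21) and Wdr18 (0.59 ± 0.08) rose as well, while Pelp1 fell (-0.60 ± 0.06). In CB Senp3, Las1l and Pelp1 rose, the last from 567, 357, 611 and 1031 to 1394, 4916 and 771 with groups that overlapped, and Tex10 fell. Zdhhc19, the palmitoyltransferase that TEX38 anchors, went from 7545, 7744 and 7166 to 1946, 2830 and 1891 in RS (-1.74 ± 0.15), and Tex38 itself went from 4793, 5435 and 5030 to 1345, 1492 and 1348 (-1.85 ± 0.08). Cep55, the partner of TEX14 at the bridges, rose by 1.25 ± 0.15 in RS, where Tex14 did not pass.

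Transcripts were read from a table with 205 transcripts of 55 of these genes tested in RS, in which a read pair that matched several transcripts was shared equally. Past both thresholds, 79 were lower and 6 higher in RS (10.3 and 10.6% of 57133 transcripts), 29 of 207 lower in Spc (3.55% of 57631) and 39 of 157 lower in CB (4.75% of 30623), with 0 higher in Spc and CB by adjusted or unadjusted p. The 6 higher ones belonged to Spata13, Spata5l1 and Tex19.1. In RS 36 genes had 2 or more transcripts tested and the median spread between a gene's transcripts was 0.14 on the log2 scale. Since transcripts of a gene share reads, they are not independent.

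Spata17 was the exception in RS and in Spc, named for its spread and for having transcripts that passed the test in opposite directions. In CB the spread was wider for Spata1 (1.68) and Tex30 (1.37) than for Spata17 (0.96). It lies on the minus strand of chromosome 1, 187044648 to 187215465 (GRCm38, GENCODE vM21), and codes for a calmodulin-binding protein. Its longest protein-coding transcript, Spata17-205 with 11 exons, was at 2064, 2263 and 2027 in CTRL RS and at 2595, 3074 and 2667 in cKO RS, and rose by 0.39 ± 0.08 (adjusted p = 0.0040). Spata17-204, a processed transcript with 2 exons that spans 187135300 to 187143084, was at 501, 487 and 500 in CTRL RS and at 68.1, 89.3 and 72.4 in cKO RS (-2.69 ± 0.12, adjusted p = 2.4e-06). Spata17-208, with 3 exons from 187135293 to 187143097, fell by 1.66 (SE 0.08, adjusted p = 3.5e-06). Spata17-202 (-0.49 ± 0.08, adjusted p = 0.00077) has the same lower coordinate, 187135293, as Spata17-208. Spata17-204 has 0 bases and Spata17-208 has 13 bases that no other transcript of the gene covers. In Spc Spata17-205 rose by 0.50 ± 0.08 (adjusted p = 0.0089), Spata17-204 (-1.58 ± 0.26, adjusted p = 0.0078) and Spata17-208 (-0.71 ± 0.16, adjusted p = 0.022) fell, and Spata17-202 was at 0.18 ± 0.12 (adjusted p = 0.28). In CB Spata17-205 was at -0.06 ± 0.17 (adjusted p = 0.83), and Spata17-208 (-1.01 ± 0.24, adjusted p = 0.0085) and Spata17-202 (-0.65 ± 0.20, adjusted p = 0.029) fell. The gene value of Spata17, -0.13 in RS, covers transcripts whose log2 fold changes lay 3.09 apart.

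Levels can be compared between genes only per length, here as the mean normalized count per kb of the longest annotated transcript, for 55 genes. Spata4 was highest in CTRL RS (47206), CTRL Spc (34442) and cKO RS (24132), and Spata33 was highest in CTRL CB (1664). In CTRL RS Spata20 (42287), Spata33 (41201), Spata21 (39410), Spata24 (37647) and Spata19 (37250) followed. Spata13 (5.98) and Spata5l1 (7.85) were lowest there. In cKO RS Spata33 (14226), Spata24 (12082), Spata16 (9408) and Spata20 (8664) came after Spata4, and Spata13 stood at 23.2. Spata4 itself fell in RS by 0.96 on the log2 scale, from 53346, 45176 and 51170 to 23719, 24962 and 27842 normalized counts, and was at -0.03 ± 0.11 in Spc (adjusted p = 0.87). Tex30 was at 4071, 4238 and 4472 in CTRL Spc, 3929, 3446 and 4239 in CTRL RS, and 1709, 1527 and 1457 in cKO RS, and fell by 1.29 in RS (SE 0.10, adjusted p = 1.5e-05) without a rise from Spc in CTRL.

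Promoters were read from RefSeq (GRCm38.p6), 250 bases before to 50 after the start, for 47 of the 56 genes. TGACGT, the core of the cAMP response element that the spermatid activator CREM binds, was searched on both strands, and a gene counted once however many matches it held. It was held by 7 of these 47 genes, 14.9%, and by 8.37% of 27025 genes with a promoter. Of the 24 genes called lower in cKO RS that had a promoter, 5 held it (20.8%), and of the other 23, 2 did (8.7%). TAACNG, the core of the MYB motif, was held by 13 of 47 genes (27.7%) and by 25.9% of all genes. It was held by 8 of the 24 genes called lower (33.3%) and by 5 of the other 23 (21.7%). These are matches of letters and no test was run on them. The stretches around the upstream matches of 4 genes called lower are shown with the match in capitals, 5′ to 3′ on the strand of the gene, because they belong to the genes with the values above.
Spata18: cagccggccgccACGTCAaggtttgtttaa
Spata32: cccctggcctgaACGTCAcagaagccgcag
Spata6: actcataactttACGTCAcagaagagccgc
Spata7: gtccctgtgttgTGACGTcataatctgcag
The stretch of Spata18 lies at chr5:73651311-73651340 on the plus strand, and its match begins 57 bases before the start. That of Spata32 lies at chr11:103218484-103218513 on the minus strand, with a match that begins 69 bases before the start. That of Spata6 lies at chr4:111719866-111719895 on the plus strand, with a match that begins 132 bases before the start. That of Spata7, at chr12:98628123-98628152 on the plus strand, crosses the start; its match begins 7 bases before it, and a second match on the other strand overlaps the first.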

How the data were processed

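Counts per gene and transposable element family were made by the authors from paired-end reads with cutadapt 2.8, STAR 2.7.1a and TEtranscripts (versions per the submitters' processing notes) on GRCm38, and deposited as raw counts for Spc, RS and CB. A deposited transcript table holds estimated counts from featureCounts 2.0.1 on GENCODE vM21, with shared reads divided. TEtranscripts counts are whole numbers, and the transcript values were rounded.

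Genes with at least 10 counts in at least 3 libraries (transcripts: 20 in 3) were tested with edgeR 4.0.16 (R 4.3.3; TMM scaling, quasi-likelihood test), with p-values adjusted by Benjamini-Hochberg over all genes tested. Rose and fell mean an adjusted p of at most 0.05, and the threshold adds a log2 fold change of 1.5 in size. SE was derived from the F statistic. Normalized counts of Spc and RS share 1 scale and those of CB have their own. The scripts were tested on simulated counts: of 100 genes changed by 2 on the log2 scale, 94 were recovered in RS, 94 in Spc and 80 in the interaction, and of 100 changed by 1, 63, 47 and 36. False calls were 14, 4 and 3. The changed genes were few, not low in counts, and moved equally often up and down. The scaling shift of CTRL RS was not simulated, so these rates may not hold in the real data. Alternatives were DESeq2 1.42.0, scaling by library size, no filter, summed transcripts, a replicate block and leaving out each library.

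Members and lists (roles, partners, markers) were chosen with earlier results of these data known. Named genes were those of the role groups, up to 5 at each end of a comparison whose normalized counts averaged 100 or more, and genes with transcripts in opposite directions. Positions matched for 55 of 56 genes (not Tex40), and protein sequences were not used here. Spata22, Spata24, Spata5, Tex16 and Tex30 overlap another annotated gene on the same strand, so their counts are uncertain. One gene that fits the naming rule is not reported here.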

Additional observations from a re-analysis of the deposited data

Results flagged for a closer look

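In the control CB libraries, 54 genes were examined for a library far from the rest, and 1 was found. Spata24 was at 957, 975, 983 and 1128 normalized counts, with library d highest and a gap ratio of 0.846 (the gap to the next library over the whole range), above Dixon's critical value. About 5% of such groups are flagged by chance.

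The cKO effect differed between RS and Spc for 36 of the 56 genes by the interaction term (RS minus Spc, log2, tested in edgeR), 31 more negative in RS (24.1% of the 18171 genes tested were) and 5 more positive (19% of all). With scaling by library size only, 9 were more negative and 13 more positive. The call was lost or turned in 13 alternatives for Spata3, 12 each for Spata9 and Tex10, and 11 for Spata2l. Among tail and mitochondria genes the term was -1.82 for Spata18, -1.47 for Spata6, -1.43 for Spata19, -1.20 for Spata33, -0.99 for Tex33, -0.64 for Tex40 and -0.62 for Spata17. Among genes without an assigned role it was -2.10 for Spata32, -1.78 for Spata3, -1.61 for Tex13a, -1.36 for Spata24, -1.23 for Tex30, -1.23 for Spata20, -1.21 for Tex28, -1.17 for Spata21, -1.12 for Tex38, -1.08 for Spata9, -1.05 for Tex26, -1.05 for Spata4, -1.03 for Spata45 and -0.96 for Tex36. It was smaller for Tex21 (-0.69), Tex22 (-0.65), Tex9 (-0.63) and Spata1 (-0.42). The paralog Spata31d1a was at -1.75 and the acrosome gene Spata16 at -0.51. Broadly expressed genes went both ways, with Spata7 at -1.37, Spata2l at -0.93, Tex2 at -0.87 and Tex10 at -0.31 below 0, and Spata2 at 0.97, Spata5l1 at 2.30 and Spata13 at 2.77 above it. The meiotic genes Tex19.1 (0.87) and Spata22 (1.07) were above 0. Late spermatid markers fell by a median of -3.94 in RS and -2.21 in Spc, and their part in these terms was not tested.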

How the results depend on the processing

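Scaling by library size only shifted the median of all genes from 0.11 to 0.73 in RS, from -0.08 to -0.54 for the step in CTRL and from -0.13 to 0.58 for the interaction. TMM factors were 0.716 to 0.767 in CTRL RS and 1.00 to 1.18 in the other Spc and RS libraries. With it, 7 genes were higher and 15 lower at the threshold in RS, 14 fell and 12 were higher at the threshold in the CTRL step, and 13 were more positive and 9 more negative in the interaction. Signs turned in RS for Spata16 (0.36) and Spata2l (0.073), in the CTRL step for Spata4 (-0.14), Tex10 (-0.063), Tex22 (-0.0394) and Tex40 (-0.25), and in the interaction for Spata1 (0.28), Spata16 (0.20), Spata17 (0.087), Tex10 (0.39), Tex21 (0.010), Tex22 (0.059), Tex40 (0.069) and Tex9 (0.073).

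With a threshold of 1 in place of 1.5, 12 genes were lower in Spc, 6 higher in RS, 2 higher and 24 lower in CB, and 9 higher in the cKO step. With no count filter, 1 was higher in CB. With both Spc libraries that stood apart left out, chosen after seeing the data, 4 rose and 3 were lower at the threshold in Spc; the cause was not tested. Leaving out each library gave, in Spc, 0 to 4 that rose, 2 to 20 that fell and 1 to 11 lower at the threshold. In RS 2 to 4 were higher, in CB 1 to 2 rose and 0 to 1 were higher, in the cKO step 15 to 34 rose and 0 to 9 were higher, and in the interaction 3 to 6 were more positive and 19 to 39 more negative. DESeq2 and summed transcripts kept every count within 1.5 times.

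Replicate numbers were not used to pair the samples in the main tests. Correlations of same-numbered deviations ran from -0.30 to 0.60, and not every sample correlated best with its own number. Between cKO RS and cKO Spc, numbers 2 (0.60) and 3 (0.36) did, and number 1 (-0.05) did not. With 3 libraries per group such correlations cannot exclude a pairing. With the replicate block 1 gene rose in Spc in place of 2, 34 in place of 24 rose in the cKO step, and 35 in place of 31 were more negative in the interaction. No paired analysis was possible for CB because the numbers in its column names could not be matched to the replicate numbers of the labels. Depth limits CB most, where Tex28 and Spata5l1 were not tested.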
